A study of Mus musculus with 8 samples.

Results

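Hydroxymethylated DNA was examined at the olfactory receptor (Olfr), vomeronasal receptor (Vmn1r and Vmn2r) and trace amine-associated receptor (Taar) genes of mouse germinal center B cells, the antibody-maturing B cells of the spleen. The members were chosen by gene name and position alone. Peaks of the 4 deposited lists were merged into 341091 autosomal union regions, and the 1738 regions (0.510%) that touched the span of a receptor gene, or the 2 kb on either side of it, were taken. The cells came from spleens of C57BL/6 mice that were TET2 wild type (WT) or TET2 knockout (KO). TET2 is a dioxygenase that converts 5-methylcytosine to 5-hydroxymethylcytosine (5hmC). In 2 KO and 2 WT libraries, each genotype numbered 2 and 3, DNA carrying 5hmC had been immunoprecipitated and sequenced (hMeDIP-seq), and 4 input libraries were not analysed here. The labels give no age or sex, do not say whether the knockout was germline or limited to some cells, and do not say whether libraries came from separate animals. All p-values thus cover only how far these libraries vary, and that variation may be technical. Peaks in DNA give no transcript levels, so neither the cell type nor the loss of TET2 could be checked from them.

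Odorant receptors are G protein-coupled receptors whose genes lie in large clusters, and most are read from a single coding exon. An olfactory neuron expresses a single allele of a single receptor gene, while the others stay in repressed chromatin. Vmn1r genes, also with a single coding exon, and Vmn2r genes, with several exons and a long extracellular domain, encode the receptors of the vomeronasal organ, and most Taar genes encode olfactory receptors for amines. Most of these genes are not known for a role in B cells. 5hmC is in general most frequent in the bodies and enhancers of active genes.

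The gene table held 2051 autosomal receptor genes, of which 1469 were protein coding and 582 were pseudogenes or of another type. They were 1419 Olfr, 366 Vmn1r, 250 Vmn2r and 16 Taar genes. Their windows, the span plus 2 kb on each side, covered 16.1 Mb. Of the members, 944 touched an Olfr gene, 580 a Vmn2r gene, 204 a Vmn1r gene and 10 a Taar gene. A single receptor window was touched by 1691 members, and 47 touched 2 or more. In 61 members (3.51%) the region also lay in the window of a protein-coding gene outside these families. The lists held between 270548 and 300954 peaks each, and between 1245 and 1432 of them lay in members. Read totals of the libraries are not given in the sources used here. KO replicate 3 had the shortest peaks of the 4 libraries, with a median of 347 bp against 406 to 431 bp.

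Most receptor genes hold little CG around their start. The next 5 promoters, from 250 bases before to 50 bases after the annotated start, come from RefSeq (GRCm38.p6) and are shown on the gene's own strand, with every CG, the dinucleotide at which most 5hmC occurs, in capitals. The first 4 were overlapped by a peak in all 4 libraries, and the last had the most CG among receptor promoters with no peak in any library.
Olfr313: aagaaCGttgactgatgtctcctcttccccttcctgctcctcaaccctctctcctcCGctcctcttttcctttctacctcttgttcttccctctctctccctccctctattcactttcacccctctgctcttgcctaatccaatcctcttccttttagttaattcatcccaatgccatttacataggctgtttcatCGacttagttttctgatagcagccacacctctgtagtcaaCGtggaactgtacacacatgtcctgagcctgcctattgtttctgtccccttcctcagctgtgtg
Olfr1462: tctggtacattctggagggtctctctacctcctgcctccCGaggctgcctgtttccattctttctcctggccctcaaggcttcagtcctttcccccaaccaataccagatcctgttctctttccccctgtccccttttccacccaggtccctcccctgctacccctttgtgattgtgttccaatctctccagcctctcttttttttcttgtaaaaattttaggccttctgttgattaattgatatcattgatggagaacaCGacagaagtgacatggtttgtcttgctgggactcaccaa
Vmn1r1: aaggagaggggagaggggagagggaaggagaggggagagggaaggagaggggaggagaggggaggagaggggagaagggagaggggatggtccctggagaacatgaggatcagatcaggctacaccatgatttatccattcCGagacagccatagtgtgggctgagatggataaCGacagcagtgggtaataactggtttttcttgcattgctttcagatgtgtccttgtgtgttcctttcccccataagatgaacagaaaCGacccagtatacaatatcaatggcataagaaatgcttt
Olfr165: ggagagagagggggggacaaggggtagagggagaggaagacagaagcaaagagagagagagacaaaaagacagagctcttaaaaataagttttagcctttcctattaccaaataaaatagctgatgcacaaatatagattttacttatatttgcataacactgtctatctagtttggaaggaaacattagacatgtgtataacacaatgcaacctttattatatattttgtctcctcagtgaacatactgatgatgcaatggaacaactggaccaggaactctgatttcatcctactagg
Olfr212: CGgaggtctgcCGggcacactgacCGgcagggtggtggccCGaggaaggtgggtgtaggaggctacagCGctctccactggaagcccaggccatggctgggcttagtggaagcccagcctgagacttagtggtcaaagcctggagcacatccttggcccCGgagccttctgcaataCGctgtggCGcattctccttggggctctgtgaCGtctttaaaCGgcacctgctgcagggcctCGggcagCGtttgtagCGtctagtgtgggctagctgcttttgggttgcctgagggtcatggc
The Olfr313 promoter (chr11:58816678-58816977, plus strand) has 4 CG and lay under peaks over 300 and 277 bases in KO replicates 2 and 3 and over 300 and 300 bases in WT replicates 2 and 3. The Olfr1462 promoter (chr19:13190419-13190718, plus strand) has 2 CG and lay under peaks over 300, 266, 300 and 300 bases in the same order. The Vmn1r1 promoter (chr1:182158049-182158348, minus strand) has 3 CG and lay under peaks over 211, 245, 203 and 204 bases. The Olfr165 promoter (chr16:19407968-19408267, minus strand) has 0 CG and lay under peaks over 148, 187, 137 and 153 bases. A fragment pulled down by the antibody can be longer than this window, so a base that carries 5hmC need not lie in it. Whether such a base lies near these promoters was not tested. The Olfr212 promoter (chr6:116506266-116506565, plus strand) has 13 CG and lay under a peak over 0 bases in every library. These 5 were chosen for their peaks and CG counts, so they show no relation between both.

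Receptor promoters as a group were poor in CG and rarely under a peak. The promoter table held 1276 promoters of 1271 receptor genes. Their median CG count was 1 in 300 bases, against 15 in 18808 promoters of other protein-coding genes, and 31.1% had no CG at all, against 2.59%. Their median GC content was 35.7%, against 57.7%. In 76.3% of receptor promoters, against 2.99% of the others, the annotated start was the ATG itself. For these genes the window thus holds sequence before the coding exon and may miss the start of transcription. A peak overlapped 1.96% and 2.12% of receptor promoters in KO replicates 2 and 3 and 1.72% and 2.27% in WT replicates 2 and 3. In other protein-coding genes the shares were 6.79%, 4.97%, 6.33% and 6.87% in the same order. Every library thus had a lower share at receptor promoters, by 1.62 ± 0.29 on the log2 scale (SD, n = 4 libraries). The exact two-sided sign-flip test over libraries gave p = 0.125, the smallest that 4 libraries allow. Among promoters with 0 to 4 CG, a class that holds 1236 receptor and 4290 other promoters, the log2 ratio was -1.76 ± 0.30 (SD, n = 4; exact p = 0.125). Receptor promoters had fewer CG within this class as well, with a median of 1 against 2. Split by CG count, the mean log2 ratio was -2.25 at 0 CG, -1.06 at 1, -1.12 at 2 and -2.11 at 3 to 4. These values rest on 2 to 12 receptor promoters with a peak per library and count.

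A peak in all 4 libraries overlapped 16 receptor promoters (1.25%, against 3.99% of other promoters), 12 of Olfr and 4 of Vmn1r genes. Besides Olfr313, 2 of them, Olfr311 and Olfr312, lie in the same cluster on chromosome 11. The Olfr313 promoter was the only one of the 1276 receptor promoters to overlap a region that the authors' deposited table calls higher in WT. Such overlaps were rare at other promoters too, with 73 of 18808, or 15 of 4290 among those with 0 to 4 CG. Both motif searches covered both strands. The homeodomain-type motif TAATTA, which holds no G or C, was found in 16.6% of receptor promoters and in 3.65% of other promoters. Among promoters with 0 to 4 CG the shares were 16.6% and 7.53%. Median GC content still differed in this class, at 35.7% in receptor and 47.0% in other promoters. A motif of A and T alone depends on base composition, whose part in these shares was not tested. The Ebf-type motif (TCCC, 2 free bases, GGGA), the class bound by the early B cell factors that olfactory neurons and B cells share, can hold a CG at its free bases and was found in 5 receptor promoters (0.392%) and in 1.02% of the others, or 0.405% and 0.862% among promoters with 0 to 4 CG. All 5 were Olfr promoters. These are matches of letters and not measured binding.

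5hmC peaks covered a smaller part of receptor windows than of other genes in every library. The covered share of receptor windows was 3.60% and 3.07% in KO replicates 2 and 3 and 3.13% and 3.66% in WT replicates 2 and 3, a mean of 3.37% ± 0.31 (SD, n = 4). Windows of the other 19087 protein-coding genes were covered by 5.32%, 4.24%, 4.97% and 5.41% in the same order. The log2 ratio of both shares was -0.56, -0.46, -0.67 and -0.56, with a mean of -0.56 ± 0.08 (SD, n = 4; exact sign-flip p = 0.125), a ratio of 0.677. Against 5945 other protein-coding genes with a span under 10 kb, nearer to receptor genes in length, it was -0.63 ± 0.13 (exact p = 0.125). The groups of receptor and other windows did not overlap in their covered share.

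The genotypes did not separate at the receptor windows. KO and WT each had 1 library near 3.1% and 1 near 3.6%, and the difference KO minus WT was -0.057 percentage points (exact two-sided permutation test over 2 against 2 libraries, p = 0.667; the smallest possible is 0.333). Without KO replicate 3 the difference was 0.21 percentage points, and without WT replicate 3 it was 0.21 as well, so its sign rests on single libraries. The log2 ratio of receptor windows to other genes was -0.51 in KO and -0.61 in WT on average, a difference of 0.10 (exact p = 0.333).

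**Figure D1:**
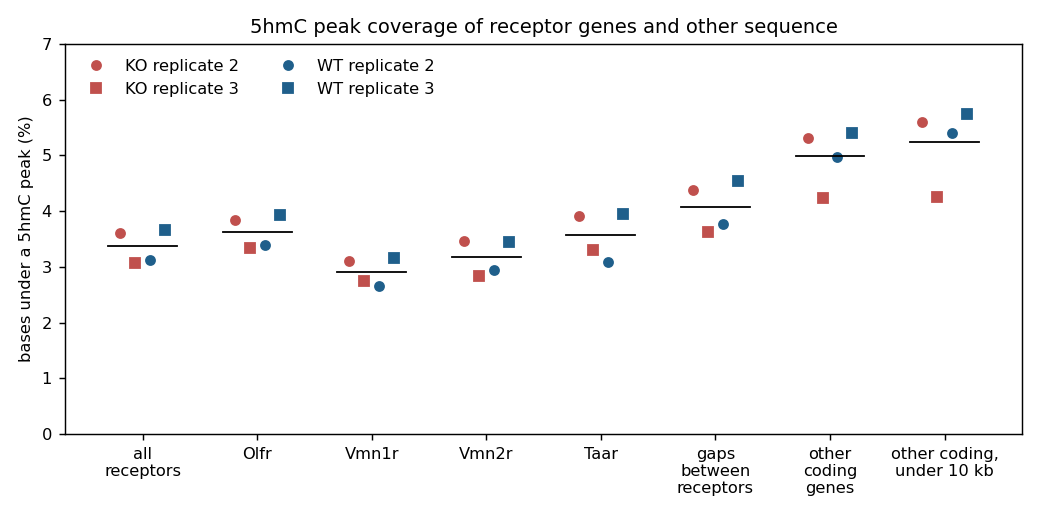
Percent of bases under a 5hmC peak in the windows of the receptor families, the gaps between them and other protein-coding genes; each point is 1 library and each line the mean of 4. The 4 libraries lie between 3.07% and 3.66% at receptor windows and between 4.24% and 5.41% at other protein-coding genes.

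Receptor windows were also covered less than the sequence between them. The 1454 gaps between neighbouring receptor windows of a cluster, 22.7 Mb with no window of another gene, were covered by 4.38% and 3.63% in KO replicates 2 and 3 and by 3.77% and 4.54% in WT replicates 2 and 3. The log2 ratio of windows to gaps was -0.27 ± 0.03 (SD, n = 4; exact p = 0.125). It was lower in windows in all 4 libraries with flanks of 2 kb, but with flanks of 5 kb it was 0.05. The gaps in turn had less coverage than other protein-coding genes, by 0.29 ± 0.08 on the log2 scale (SD, n = 4; exact p = 0.125).

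Among the families, Olfr windows were covered by 3.83%, 3.33%, 3.39% and 3.94% in KO replicates 2 and 3 and WT replicates 2 and 3. Vmn2r windows, which hold long introns, were covered by 3.45%, 2.83%, 2.94% and 3.45%, lower than Olfr in each library (log2 ratio -0.20 ± 0.04, SD, n = 4; exact p = 0.125). Vmn1r windows were covered by 3.10%, 2.74%, 2.65% and 3.15%. Their log2 ratio to Olfr was -0.32 ± 0.03 (SD, n = 4; exact p = 0.125), but 1 cluster decided it. Without the 99 Vmn1r genes of a chromosome 7 cluster described further on, the other 267 genes were covered by 3.72%, 3.45%, 3.29% and 3.92%, and 1 library lay above Olfr and 3 below. Taar windows were covered by 3.91%, 3.30%, 3.09% and 3.95%, over 0.083 Mb only. Windows of pseudogenes and genes of another type had more coverage than those of protein-coding receptors, by 0.23 ± 0.02 on the log2 scale (SD, n = 4; exact p = 0.125).

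The gene span itself was the barest part of the window. In 1240 Olfr genes with a span up to 1500 bp, most of which is the coding exon, 0.88%, 0.67%, 0.72% and 0.93% of span bases lay under a peak in KO replicates 2 and 3 and WT replicates 2 and 3. The 2 kb on either side of the same genes were covered by 4.15%, 3.71%, 3.67% and 4.36%. The span was thus covered 0.200 times as much as its flanks (log2 ratio -2.32 ± 0.11, SD, n = 4; exact p = 0.125). CG density and the share of reads that can be placed uniquely were not analysed here for spans or flanks, and their part in these differences was not tested. In 751 other protein-coding genes with spans of that size the shares were 2.33%, 1.52%, 2.38% and 2.44% in the span and 5.43%, 4.31%, 4.79% and 5.33% in the flanks, a log2 ratio of -1.21. The Olfr ratio was lower than that of the other genes by 1.11 ± 0.16 on the log2 scale, in all 4 libraries (SD, n = 4; exact p = 0.125).

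Within the Olfr family, genes listed as protein coding had the lower span coverage. In the 939 protein-coding genes 0.54%, 0.42%, 0.42% and 0.70% of span bases lay under a peak. In 301 Olfr genes listed as pseudogenes or of another type, the shares were 2.24%, 1.63%, 1.89% and 1.81%. The spans of this group were higher in each library, by 1.89 ± 0.36 on the log2 scale (SD, n = 4; exact p = 0.125). The flanks were covered by 4.92% in this group and 3.68% at protein-coding genes on average.

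Vmn1r spans were barer still. In 334 Vmn1r genes with a span up to 1500 bp, 0.34%, 0.13%, 0.31% and 0.31% of span bases and 3.35%, 2.97%, 2.79% and 3.47% of flank bases were covered (log2 ratio -3.63 ± 0.64, SD, n = 4; exact p = 0.125). The log2 ratio was -3.46 without the chromosome 7 cluster. A single union region touched the spans of the 203 protein-coding Vmn1r genes, over 0.191 Mb of sequence. In Vmn2r genes, with a median span of 16090 bp that is mostly intron, the span and its flanks differed by less than the spread between libraries (log2 ratio 0.01 ± 0.04, SD, n = 4; exact p = 0.75).

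Position relative to the annotated start shows the same gap for Olfr and Vmn1r genes. For 938 Olfr genes with a known strand, the mean coverage over the 4 libraries was 4.01% between 1000 and 500 bases upstream, 1.82% in the last 500 bases before the start, 0.73% in the first 500 bases after it and 0.57% in the next 500. It came back to 4.18% between 1500 and 2000 bases downstream, past the end of a typical coding exon. For 206 Vmn1r genes the first 500 bases had no peak base in any library and the next 500 had 0.13%. For 15185 other protein-coding genes the same bins held 3.62% and 5.52%. In 116 Vmn2r genes they held 2.45% and 3.39%, while the last 500 bases before the start held 0.33%. The Vmn1r genes include 83 of the chromosome 7 cluster, and the profile was not computed without it.

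**Figure D2:**
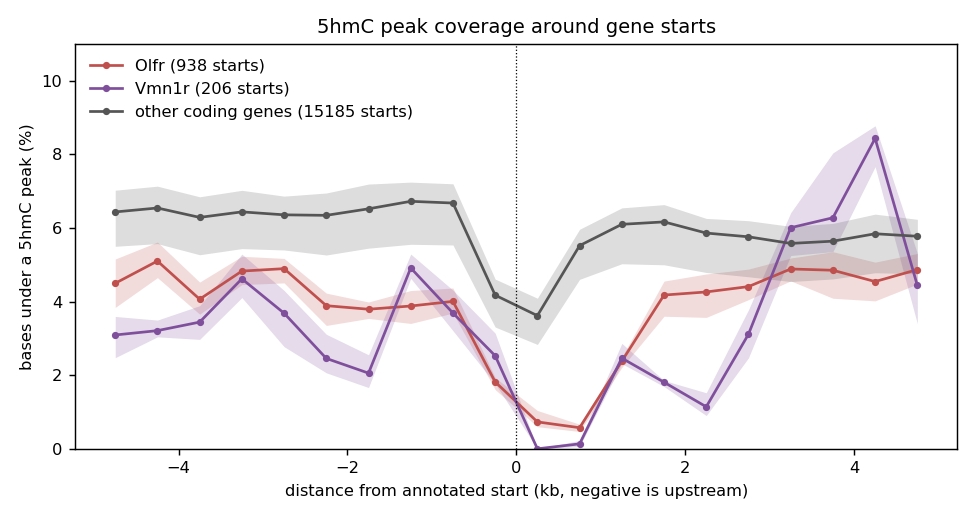
Mean percent of bases under a 5hmC peak in 500 bp bins around the annotated start, with the range of the 4 libraries shaded. The Olfr and Vmn1r lines fall to 0.73% and 0.00% in the first 500 bases after the start, where other protein-coding genes are at 3.62%.

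About as many receptor genes had a peak in their window as had none. No library had a peak at 1021 of 2051 genes (49.8%), which were 726 Olfr genes (51.2%), 211 Vmn1r genes (57.7%), 76 Vmn2r genes (30.4%) and 8 of 16 Taar genes. The share was 11.8% among other protein-coding genes, which are longer, and 49.4% among those with a span up to 1500 bp, against 56.1% of receptor genes of that size. Peaks of all 4 libraries occurred at 706 receptor genes (34.4%), against 76.6% of other protein-coding genes. With a span up to 1500 bp the shares were 27.7% of receptor genes and 35.0% of other protein-coding genes.

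The Taar genes lie together on chromosome 10, where covered and bare genes alternate. Taar2 was covered by 13.9%, 10.6%, 12.5% and 12.4% of its window in KO replicates 2 and 3 and WT replicates 2 and 3. Taar1, the trace amine receptor that is also active in the brain, was covered by 9.50%, 10.2%, 10.3% and 10.6%, and Taar5, a receptor for trimethylamine, by 8.99%, 7.64%, 8.78% and 8.62%. Taar3, Taar4, Taar6, Taar7d, Taar7f, Taar8a, Taar8b and Taar9 had no peak in any library.

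The most covered receptor genes had peaks in all 4 libraries. Olfr1235-ps1, an Olfr pseudogene on chromosome 2 (chr2:89389708-89390330), had 2485, 2325, 2454 and 2445 window bases under a peak in KO replicates 2 and 3 and WT replicates 2 and 3, 52.5% of its window on average. Its peaks belong to the widest member, a region of 5300 bp (chr2:89384893-89390192). Next came Olfr1286 (31.9% on average) and Olfr1282 (30.9%), neighbours on chromosome 2 in another cluster. Olfr1564 (28.2%), Olfr2 (25.8%), Olfr95 (25.2%), Olfr670 (24.9%), Olfr374 (24.5%), Olfr240-ps1 (24.5%) and Olfr737-ps1 (23.4%) completed the leading 10. Olfr2 encodes the receptor known as I7, which responds to octanal. It had 1532, 1421, 1485 and 1468 covered bases, with no separation of KO and WT.

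The genes fell into 94 clusters, defined as receptor genes less than 1 Mb apart on a chromosome, of which 36 held 10 genes or more and 35 held a single gene. Among those with 10 genes or more, a cluster of 12 Olfr genes on chromosome 15, starting at 98.2 Mb, was covered most, by 8.70%, 6.00%, 7.67% and 7.74%. It was followed by 26 Olfr genes on chromosome 11 from 58.5 Mb, the cluster of Olfr313 (mean of 4 libraries 5.27%), 25 on chromosome 7 from 140.2 Mb (5.14%), 11 on chromosome 11 from 51.0 Mb (5.08%) and 18 Vmn2r genes on chromosome 3 from 64.1 Mb (4.70%). At the other end stood 99 Vmn1r genes on chromosome 7 between 20.1 and 24.1 Mb, covered by 1.33%, 0.75%, 0.84% and 0.97%. Of the 83 promoters of this cluster in the table, 53 (63.9%) were identical in all 300 bases to another promoter, against 0.425% of Olfr promoters. Reads from identical copies cannot be placed, and the part this had in the low coverage was not tested. The next lowest clusters, none with identical promoters, were 15 genes on chromosome 17 from 22.5 Mb (1.80%), 62 on chromosome 17 from 17.7 Mb (1.85%), 61 on chromosome 7 from 84.8 Mb (2.35%) and 28 on chromosome 6 from 41.8 Mb (2.37%). The cluster with the most genes, 293 Olfr genes on chromosome 2 from 85.3 Mb, was covered by 2.99%, and the 158 Olfr genes around the beta-globin genes on chromosome 7 by 3.51%.

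**Figure D3:**
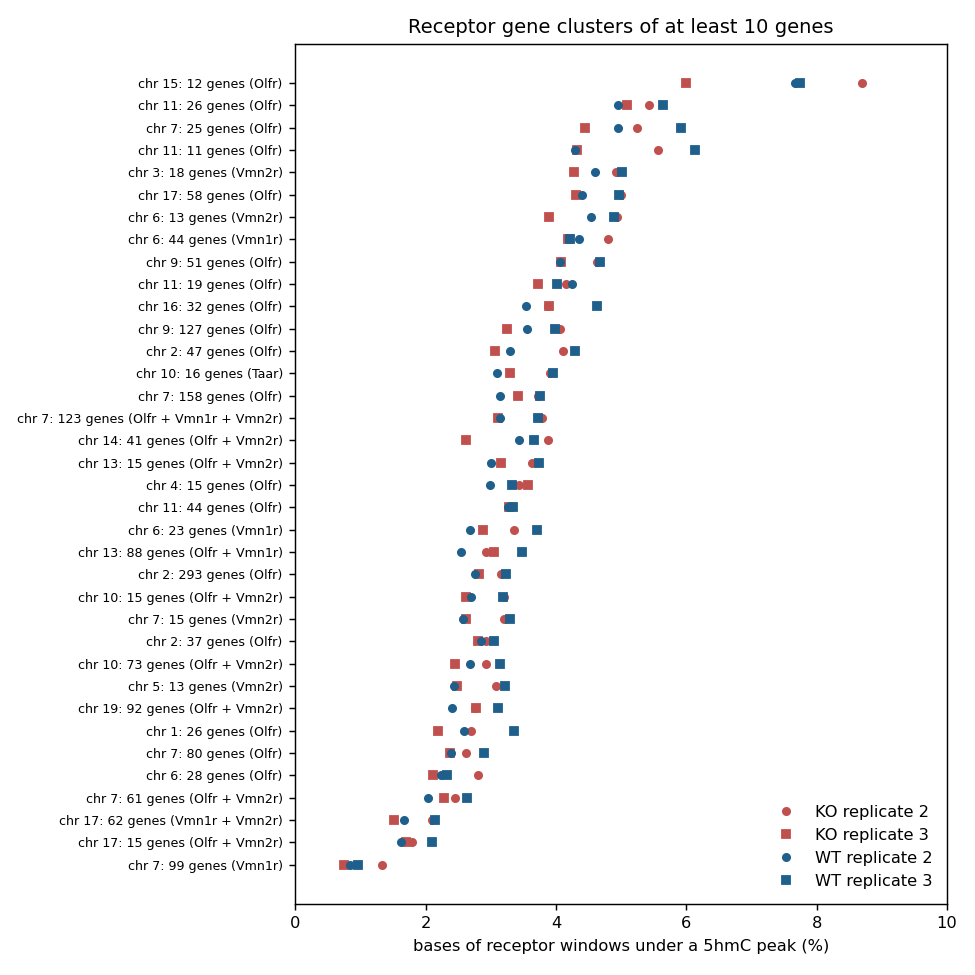
Percent of receptor window bases under a 5hmC peak in each cluster of at least 10 receptor genes, ordered by the mean; each point is 1 library. The chromosome 15 cluster of 12 genes lies between 6.00% and 8.70% and the chromosome 7 cluster of 99 Vmn1r genes between 0.75% and 1.33%.

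Where a receptor region had a peak, the peak was of ordinary strength. The fold enrichment that the authors deposited for each peak was ranked within its own list, and the median percentile of peaks in members was 51.0 and 51.7 in KO replicates 2 and 3 and 50.2 and 51.1 in WT replicates 2 and 3. All 4 lay above 50, by 1.01 ± 0.61 (SD, n = 4; exact sign-flip p = 0.125). Peaks in the windows of other protein-coding genes had medians of 47.4, 47.0, 46.7 and 47.4. Member peaks were slightly narrower than their lists, with medians of 424.5, 339, 393 and 400 bp against 431, 347, 406 and 408 bp. Union regions over 1000 bp were 18 of the 1738 members (1.04%) and 2.69% of all autosomal regions. The members of highest mean rank lay beside Olfr1401-ps1 (chr5:75138878-75139550), beside Olfr1379-ps1 (chr11:50957175-50958009), beside Olfr117 (chr17:37660192-37661225), upstream of Olfr288 (chr15:98197365-98198934) and inside Vmn2r51 (chr7:10093439-10094160). After the region at Olfr1235-ps1, the widest were the region at Olfr288 (1570 bp), those at the pseudogenes Vmn2r-ps57 (1450 bp) and Vmn2r-ps23 (1445 bp), and the one downstream of Olfr875 (1274 bp).

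Receptor regions recurred between libraries as often as regions elsewhere. All 4 libraries had a peak in 1047 members (60.2%), against a background of 60.2% of all autosomal union regions. Both WT libraries and no KO library had a peak in 28 members (1.61%, background 1.92%), and both KO libraries and no WT library in 24 (1.38%, background 1.29%). These shares were near the background. Members seen in 1 library only were 48 and 136 in KO replicates 2 and 3 and 26 and 110 in WT replicates 2 and 3. Over all autosomal regions the counts were 10001, 17917, 9520 and 21021 in the same order. Both sets thus had more in the libraries numbered 3 of both genotypes. KO replicate 3 held 42.5% of the members seen in 1 library only, against 30.6% of all such regions. The other libraries each held a smaller share among members than among all such regions. These differences were not tested.

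Regions called higher in WT made up a smaller share among receptors than over all autosomal regions. The share was about as low in the gaps between receptor windows (3.52%), so it was not particular to the receptor windows. In the authors' deposited table, WT-higher regions touched 65 of 1738 members, 3.74% (95% Wilson interval 2.95% to 4.74%, counting error only), against a background of 6.71% of all autosomal union regions. The table carries no replicate values, and the libraries and the scale of its score are not given in the sources used here, so no test was made. Stronger regions are called more often, so members were also set against regions outside receptor windows in 20 classes of equal mean rank. At those rates 118.7 members (6.83%) would have been called. The observed count was 0.548 of that number. In the strongest class 21 of 102 members (20.6%) were called, against 27.6% of all regions of that class. In the authors' deposited table, KO-higher regions touched 0 of 1738 members, against a background of 0.00616%, and the 95% Wilson interval reaches up to 0.221%.

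The observed share was not the same in each family. WT-higher regions touched 49 of 944 Olfr regions (5.19%, interval 3.95% to 6.80%; 6.86% at equal strength), 8 of 204 Vmn1r regions (3.92%, interval 2.0% to 7.55%; 5.99%) and 8 of 580 Vmn2r regions (1.38%, interval 0.70% to 2.70%; 7.07%). No Taar region of 10 was touched. Vmn2r regions thus had 0.195 of the count at equal strength. The intervals give counting error over neighbouring regions, which are not replicates, so they cannot test the families against each other. The difference between families was not tested over libraries, since the table has none. In the gaps between receptor windows 97 of 2754 regions (3.52%; 6.07% at equal strength) were touched, in regions outside all gene windows 6.09% (6.90%) and in windows of other protein-coding genes 7.43% (6.44%). Within the Olfr family, 4.92% of regions with a midpoint inside the span and 5.26% of those beside it were touched, against 6.62% and 6.91% at equal strength.

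**Figure D4:**
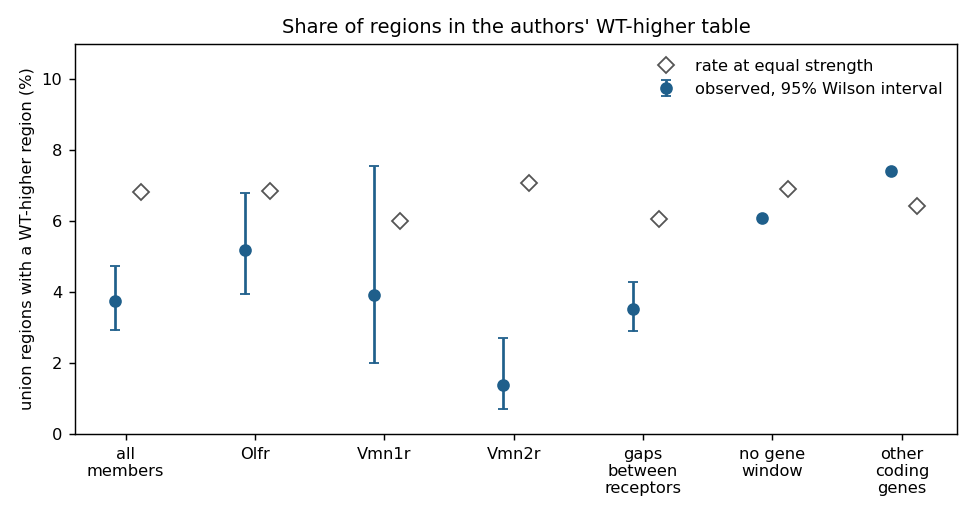
Percent of union regions touched by the authors' WT-higher table, with 95% Wilson intervals, and the percent at the rates of regions of equal strength (open diamonds). Vmn2r regions lie at 1.38% against 7.07%, and Olfr regions at 5.19% against 6.86%.

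In the deposited peak lists the WT-higher members were rarely absent from KO cells. Of the 65, all 4 libraries had a peak in 60, 3 libraries in 2 and a single library in 3. In 10 of the 65 (15.4%) every WT library covered more bases than every KO library, against a background of 21.5% of all autosomal regions in the WT-higher table. Over all members this was so in 145 (8.34%), against a background of 11% of all autosomal regions. Scores in the authors' deposited table ran from 3.31 to 8.98 at members, with a median of 4.68 against 4.77 over all autosomal WT-higher regions. The highest score, 8.98, belonged to the wide region at Olfr1235-ps1. Its peaks covered 5296 and 4807 bases in KO replicates 2 and 3 and 5268 and 5063 in WT replicates 2 and 3, with no separation of the genotypes. Next came a region inside the span of Olfr183 (score 8.25), with 406, 345, 425 and 424 covered bases, where both WT libraries lay above both KO libraries. Olfr671 (7.79), Vmn1r-ps124 (6.97) and Olfr367-ps (6.47) followed in the same table.

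The WT-higher regions were spread over 63 nearest receptor genes. Only Olfr1235-ps1, Olfr943 and Olfr1349 had 2 each in their window. Among those with 1, Vmn2r-ps23, Vmn2r1, Olfr183, Vmn1r4, Vmn2r-ps57, Olfr367-ps and Vmn2r102 had the most covered bases. Vmn2r1 belongs to the small subfamily that vomeronasal neurons express together with another Vmn2r receptor. The 2 regions of Olfr943 differed between libraries: 1 (chr9:39172324-39172749) covered 426 and 0 bases in KO replicates 2 and 3 and 375 and 385 in WT replicates 2 and 3, and the other (chr9:39180967-39181647) covered 681, 604, 610 and 615. Neither separated the genotypes by covered bases. In the cluster around the beta-globin genes 8 of 103 regions (7.77%) were touched, and in the chromosome 2 cluster of 293 genes 10 of 144 (6.94%), both near the background of 6.71%. The clusters next in gene number lay lower. They had 2 of 83 regions (2.41%) at 127 genes on chromosome 9 and 7 of 141 (4.96%) at 123 genes on chromosome 7.

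No receptor gene passed a test of covered bases between genotypes. Covered bases of each window, scaled to equal totals per library, were compared as log2(bases + 200) with limma over 14100 genes, and 0 genes (background 0%) had a Benjamini-Hochberg adjusted p under 0.05. Of 348 receptor genes with at least 500 covered bases on average, 0 were called and the lowest limma adjusted p was 0.99986. At an unadjusted limma p under 0.05 there were 8 (2.30%), against a background of 4.27% of all genes, 6 of them higher and 2 lower in KO. Of the 348, 246 had a higher and 102 a lower fitted value in KO, a median log2 difference of 0.05 against -0.01 over all genes tested. By share, 70.7% of the receptor genes and 47.9% of all genes tested had a higher fitted value in KO. Without scaling the split of the receptor genes was 132 higher and 215 lower, while their median of -0.03 still lay above the median of all genes, -0.10. The size of the receptor median varied with single libraries. It was 0.080 and 0.018 without KO replicates 2 and 3, and 0.075 and 0.007 without WT replicates 2 and 3. Over all genes tested the medians were -0.010, -0.005, 0.0003 and -0.028 in the same order.

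The genes with the smallest p in each direction had both libraries of a genotype on 1 side, as the choice by p favours. Olfr1093 had 1023 and 682 scaled covered bases in KO replicates 2 and 3 and 334 and 311 in WT replicates 2 and 3 (log2 difference 0.99, SE 0.29). Olfr921 had 813, 1151, 491 and 404 (0.86, SE 0.25). The pseudogenes Vmn2r-ps94 (0.80), Vmn2r-ps95 (0.75) and Vmn2r-ps82 (0.68) followed with higher fitted values in KO. In the other direction, Vmn2r98 had 746, 629, 1079 and 1100 scaled bases (-0.54, SE 0.19), with Vmn2r-ps96 (-0.73), Olfr521 (-0.59), Olfr316 (-0.68) and Vmn1r-ps67 (-0.48) beside it. The limma adjusted p of each of these 10 genes was 0.99986.

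Genes that olfactory neurons use to signal from these receptors, or to choose among them, had more coverage as a group than receptor windows in every library. Other protein-coding genes did as well, with 5.32%, 4.24%, 4.97% and 5.41% in KO replicates 2 and 3 and WT replicates 2 and 3. Windows of 20 such genes were covered by 6.60%, 5.33%, 6.64% and 6.77% in KO replicates 2 and 3 and WT replicates 2 and 3. This share is pooled over bases, and the longest spans were those of Ebf1 (389997 bp) and Ano2 (349715 bp). The values ranged from 0.747% on average at Ebf3 and 1.45% at Omp, the olfactory marker protein, to 11.5% at Ldb1, a cofactor of Lhx2 in receptor choice, and 13.5% at Stoml3. Ebf3, Omp, Rtp2 (2.51%) and Gnao1 (3.10%) lay below the receptor mean of 3.37%, and the other genes above it. Ebf1, which is both an olfactory and a B cell transcription factor, was covered by 10.5% on average and held 26 WT-higher regions of the authors' deposited table. Ano2 and Gnai2 held 2 each, Cngb1 1 and the other 16 genes none. The union regions of each gene were not counted, so these counts have no share beside them. The 20 windows together held 309 union regions. The background was 6.71% of all autosomal union regions and 7.43% of regions in windows of other protein-coding genes. Of 18 list genes tested with limma, 0 passed in either direction after adjustment. At an unadjusted limma p under 0.05 there were 2 of the 18, against a background of 4.27% of all genes.

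Other clustered gene families gave a range around the receptors. The mean covered share of windows was 3.43% at Tas2r bitter taste receptors, 6.02% at Mrgpr receptors, 1.54% at Fpr formyl peptide receptors, 5.10% at Defb defensins and 6.45% at Krtap keratin-associated proteins. The clustered protocadherins had 2.74% (Pcdha), 1.12% (Pcdhb) and 3.62% (Pcdhg). The receptor mean of 3.37% thus lay within the range of these 8 families.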

How the data were processed

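The authors deposited 1 narrow peak list per immunoprecipitated library. The submitters' processing notes name BWA (0.7.12-r1039), MACS2 (2.1.0.20151222) and the build GRCm38.p3, with no settings. Each deposited peak carries a fold enrichment (a ratio), a −log10 p-value, a −log10 q-value and a score. Fold and −log10 q served only to rank or select peaks inside their own list. Also deposited by the authors were a table of 24645 WT-higher and a table of 50 KO-higher regions with a score, whose caller, scale and compared libraries are not given in the sources used here.

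Touching or overlapping peaks were merged over the 19 autosomes. Gene spans and promoters came from RefSeq tables of GRCm38.p6, whose primary chromosomes share coordinates with GRCm38.p3. Autosomal genes listed before 3 Mb, 8 receptor genes among them, lie where no library has a peak and appear to carry positions of unplaced or alternate sequence. Such genes listed beyond 3 Mb could not be recognised. Those before 3 Mb and 30 receptor genes on X and Y were not used. Overlap meant at least 1 bp. The span table has no strand or exons. Strand came from the promoter table, which lacks 780 receptor genes.

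Shares were computed per library in Python 3.11.15 (numpy 2.4.6, pandas 2.3.3, scipy 1.17.1). Exact permutation tests compared libraries. limma 3.58.1 (trend, robust) in R 4.3.3 used a pseudocount of 200 and a mean of at least 500 covered bases, and was adjusted by the Benjamini-Hochberg method. It was also run on simulated data, whose outcome is not given here. The lack of called genes thus does not show that no gene differed. Log2 differences understate changes at low values. Alternatives were other peak thresholds, windows, filters, pseudocounts, scalings, overlaps, a replicate block and leaving out each library.

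The text names the 10 genes with the largest covered share, the 10 with the most WT-higher regions, the 5 with the smallest limma p in each direction, the 5 most and 5 least covered clusters of at least 10 genes, and the 5 strongest, 5 widest and 5 highest scored regions. The printed promoters, the Taar genes and the clusters with the most genes were chosen after their values were seen. The members and lists were chosen with earlier results of these data known. The 2 replicate numbers per genotype were checked for pairing, and the correlation of deviations of same-numbered libraries was 0.09. The sequences of the peaks themselves were not analysed here.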

Additional observations from a re-analysis of the deposited data

How the results depend on the processing

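Of 188 alternative values, 177 were classed as unchanged, 7 as moved and 4 as reversed. For tests only the sign of the effect counted, and no threshold was checked. Shares of regions counted as unchanged within the half-width of their Wilson interval, and the number of receptor genes called by limma stayed at 0. Many of the values are signs for the genes named for their small limma p. The KO minus WT difference in covered share of receptor windows ranged from -0.32 to 0.21 when each library was left out in turn. With a replicate block it was -0.057 with an exact p of 1, and limma with the block called 0 receptor genes (lowest adjusted p 0.607, 6 at an unadjusted p under 0.05). Pairing by number is not given by the labels. The log2 ratio of receptor windows to gaps turned to 0.046 with the span plus 5 kb. At peaks of fold 5 or more Vmn1r-ps67 was the only gene named for its small limma p that still had a value. Its fitted log2 difference turned to 0.094. The other named genes fell below the filter there, and some had no value under other settings either. Missing values are not among the alternatives counted. At a WT-higher score of at least 5 the share of members fell to 1.27%, against 2.78% of all regions. The share of members called in every library was 48.2% at fold 5 or more (all regions 48.1%) and 63.1% with the span alone. It was between 63.7% and 69.2% with each library left out (all regions 64.0% to 68.4%). The ratio of Vmn1r spans to flanks gave no value at fold 5 or more, since a library was at 0. Leaving a library out puts a single library in its genotype, whose spread limma takes from the other genotype. The causes of these changes were not tested. limma called 0 receptor genes under each setting run. The number of reads is unknown, so no limit of detection is given.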
